A study of Homo sapiens with 6 samples.

Results

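GEM, the 3 JUN genes, the 4 FOS genes, ATF3 and EGR1 were described in HCT116 cells carrying an shRNA against TRIM21, set against HCT116 cells carrying a scrambled shRNA. These 10 members were found by symbol among the 28278 symbols of the count tables, and all 10 passed the filter on low counts that left 14002 genes. HCT116 is a human colon carcinoma cell line in wide use, labelled poorly differentiated. The shTRIM21 group (labelled TRIM21 knockdown) and the shControl group (labelled WT) each held 3 libraries. Cells of both groups were infected with lentivirus, put under puromycin at 5 µg/ml 36 h later, kept under it for 2 to 3 weeks and labelled day 21, so the control cells also went through infection and selection. Whether the selected cells were clones or pools, and how many shRNA sequences were used, the labels do not say. The members were chosen by gene family and, for GEM, with its difference between shTRIM21 and shControl in these same libraries already known. Their values therefore describe these libraries, and no test is rested on them.

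AP-1 is a transcription factor made of a JUN protein paired with a second JUN, with a FOS protein or with a relative such as ATF3, joined through a leucine zipper. Many genes of this kind, though not all, are classic immediate-early genes. Growth factors and stress switch those on through MAP kinases within minutes, without new protein synthesis, and many of their mRNAs are short-lived. EGR1 is a zinc-finger immediate-early factor driven by SRF and its ETS partners. GEM encodes a small GTPase of the RGK group that is itself mitogen-inducible and binds the beta subunits of voltage-gated calcium channels. In colorectal cancer cells AP-1, and FOSL1 in particular, is known for control of invasion and protease genes.

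The libraries held 22656160 to 25842818 counts in shTRIM21 cells and 24646400 to 27123657 in shControl cells. Genes of ribosomal RNA took 9.55% to 15.2% of the counts in shTRIM21 libraries and 6.69% to 14.7% in shControl libraries. The lowest share of each group was in replicate 3. TRIM21, the targeted ubiquitin ligase, was at 8.83, 8.18 and 6.68 CPM (the count relative to the TMM-scaled library size) in shTRIM21 libraries and 11.8, 11.7 and 15.8 CPM in shControl libraries, lower in every library of the knockdown. Of 12 colon and epithelial markers 5 averaged at least 5 CPM (EPCAM, KRT8, KRT18, CDX2 and VIL1), while CDX1 was listed at 0 in all libraries and CDH17 and KRT19 were near 1 CPM. The summed level of those 12 was 173 to 175 CPM in shTRIM21 libraries and 186 to 199 CPM in shControl libraries. None of the 6 fibroblast, 6 leukocyte and 4 endothelial markers passed the filter, and the sum of each such list stayed under 1 CPM in every library. A gene listed at 0 in these tables is not read as absent, and in bulk RNA fewer cells of a type and less RNA per cell cannot be told apart.

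GEM was the member that stood furthest apart, and JUN was the only AP-1 subunit past the threshold. By edgeR's quasi-likelihood test fitted on all genes, with a Benjamini-Hochberg adjusted p of 0.05 as the threshold, 2 of the 10 members passed, both higher, 0 passed lower and 8 did not pass. In the same fit 9.08% of all tested genes passed, with 4.43% higher and 4.66% lower. Over the 10 members the log2 fold changes had a median of 0.15, against 0.01 over all genes tested. At an unadjusted p under 0.05 the members higher and lower numbered 3 and 0, and DESeq2 and limma-voom each called 2 higher and 0 lower. Since the members were chosen with this comparison known, nothing is read from those counts.

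**Figure D1:**
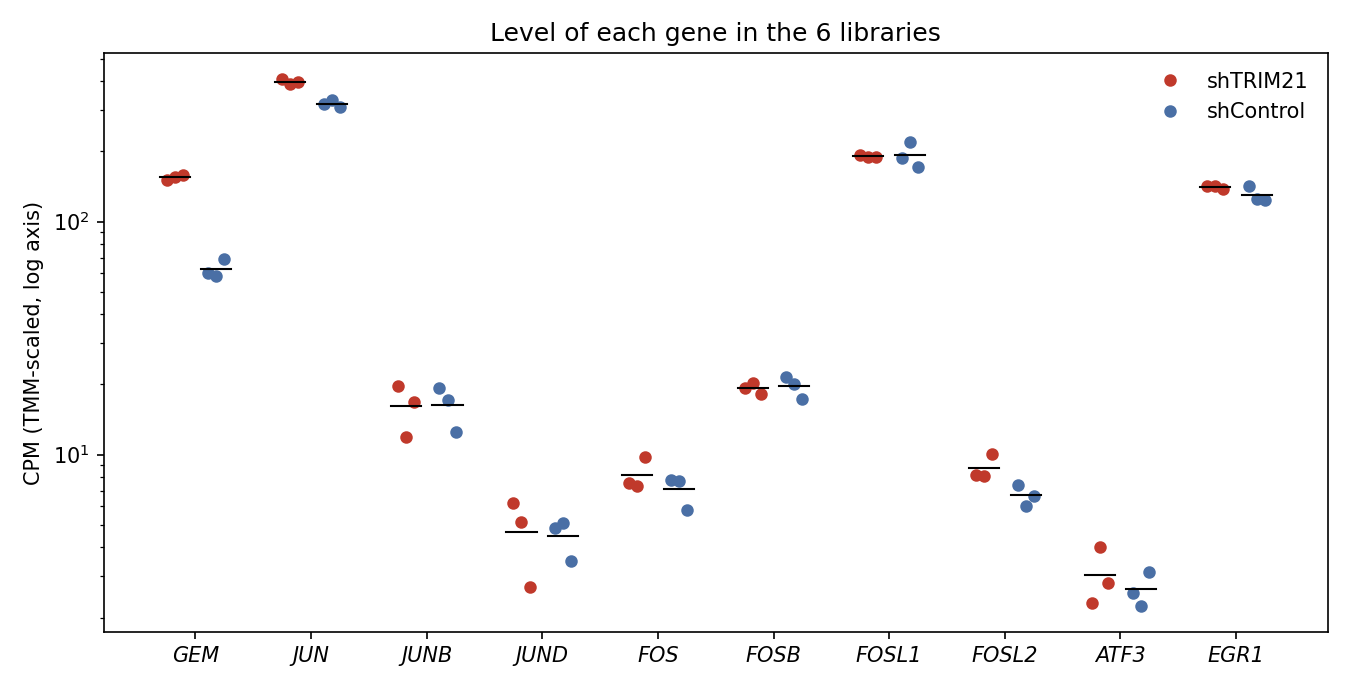
CPM (log axis) of the 10 genes in each library, with 3 shTRIM21 libraries (red) left of 3 shControl libraries (blue) and a black bar at each mean. GEM, JUN and FOSL2 have no shTRIM21 library at or below a shControl library, and the points of the other 7 genes overlap between groups.

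GEM (ENSG00000164949) is on chromosome 8, from 94249253 to 94262350 on the minus strand (GRCh38). It was counted 3836, 3464 and 4104 times in shTRIM21 libraries and 1473, 1431 and 1943 times in shControl libraries. Its level was 151, 156 and 159 CPM in shTRIM21 libraries and 60.2, 58.5 and 69.2 CPM in shControl libraries. Every shTRIM21 library thus lay far above every shControl library, and the highest control, replicate 3, was the one with the least ribosomal RNA. GEM averaged 155 ± 4.07 CPM in shTRIM21 cells and 62.6 ± 5.74 CPM in shControl cells (SD, n = 3 each), a log2 fold change of 1.31 (SE 0.07), which is a 2.47-fold higher level. Without replicate 3 of both groups the log2 fold change was 1.38. GEM ranked 100 from the top among the 14002 log2 fold changes.

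The tested genes that work beside GEM had log2 fold changes of -0.32 to 0.22, against 1.31 for GEM. GEM was chosen with its own difference known, so this contrast is a description only. Its RGK relatives RRAD and REM1 were at 0 in all shTRIM21 libraries, REM1 also in all shControl libraries, and neither they nor REM2 passed the filter. Of 15 relatives and binding partners 12 were tested, 0 rose, 1 fell and 11 did not pass. That is 8.33% past the threshold, close to the 9.08% of all tested genes, so nothing is read from the count. The median of their log2 fold changes was -0.01. The calcium channel beta subunits that GEM binds were measured at low levels, CACNB3 at 13.8 ± 0.708 CPM in shTRIM21 cells and 13.2 ± 2.67 CPM in shControl cells (SD, n = 3 each), and CACNB1, CACNB2 and CACNB4 at group means of 3.69 to 6.96 CPM. Higher members of that list numbered 0 also at an unadjusted p under 0.05 in edgeR, in DESeq2 and in limma-voom. ROCK2, a kinase that drives actin-myosin contraction, fell to 180 ± 10.5 CPM in shTRIM21 cells, against 210 ± 9.97 CPM in shControl cells (SD, n = 3 each; log2 fold change -0.22, SE 0.07, edgeR adjusted p = 0.0395). That call was lost without any one of shTRIM21 replicates 1, 2 and 3 or shControl replicates 1 and 2 (adjusted p of 0.0853 to 0.156) and under a GC and length offset (-0.11, adjusted p = 0.125; a correction for the base composition and length of each gene). ROCK1, a second kinase of that kind, had a log2 fold change of -0.04 (SE 0.06).

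The genes whose pattern over the 6 libraries was most like that of GEM were ALG5, S100A2 and ARL2BP. Likeness was the root mean square difference of log2 CPM, after subtraction of the shControl mean, among 10812 tested genes that reached a mean of 5 CPM in one group or the other. The difference was 0.066 for ALG5, a glucosyltransferase of N-glycan assembly, 0.173 for the calcium-binding protein S100A2 and 0.19 for ARL2BP, which binds the small GTPase ARL2. ALG5 was at 1.16, 1.25 and 1.25 above the control mean in shTRIM21 libraries and at -0.08, -0.1 and 0.17 in shControl libraries on that log2 scale, where GEM was at 1.27, 1.32 and 1.34 in shTRIM21 libraries and at -0.05, -0.1 and 0.15 in shControl libraries. In both genes replicate 3 was the highest shControl library. In S100A2 and ARL2BP replicate 3 was instead the lowest shControl library, at -0.07 and -0.06. Their likeness to GEM thus lay in the difference between groups.

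JUN (ENSG00000177606), the founding AP-1 subunit and a strong activator, is on chromosome 1, from 58780788 to 58784327 on the minus strand (GRCh38), and has no introns. It was at 408, 389 and 397 CPM in shTRIM21 libraries and 319, 331 and 309 CPM in shControl libraries. The groups did not overlap, as was so for 3 members, all higher in shTRIM21. Of all tested genes 14.1% were higher without overlap, and 28.1% were without overlap in either direction. JUN averaged 398 ± 9.72 CPM in shTRIM21 cells and 320 ± 11.1 CPM in shControl cells (SD, n = 3 each), a log2 fold change of 0.32 (SE 0.06), or 1.25-fold. The genes most like JUN in pattern were CHMP4B, of the ESCRT membrane-scission machinery (difference 0.021), HK1, a hexokinase (0.029), and XPC, a DNA damage sensor (0.029). They are the closest among 10812 genes, and whether they share control with JUN was not tested.

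JUNB and JUND, the other JUN proteins and weaker activators than JUN on many targets, did not pass. JUNB was at 19.7, 11.9 and 16.9 CPM in shTRIM21 libraries and 19.4, 17.2 and 12.5 CPM in shControl libraries. Its lowest libraries were replicate 2 of shTRIM21 and replicate 3 of shControl, and the groups overlapped throughout. The log2 fold change was -0.02 (SE 0.18), with a 95% interval of -0.39 to 0.36 in the fit, so a change the size of that of JUN lies within it. In the annotation 259 exonic bases of JUNB overlap HOOK2 on the opposite strand, and reads there could not be told apart if strand was not used in counting.

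JUND was counted only 158, 114 and 70 times in shTRIM21 libraries and 118, 125 and 98 times in shControl libraries. Replicate 3 was lowest in each group, and the shTRIM21 libraries spanned the whole shControl range. Its CPM averaged 4.67 ± 1.79 in shTRIM21 cells and 4.47 ± 0.865 in shControl cells (SD, n = 3 each), with a log2 fold change of 0.06 (SE 0.28, interval -0.53 to 0.65). The coefficient of variation in shTRIM21 was 38.3%, where counting error alone gives 9.37%. JUND has the highest GC content of the members, at 69.7% of its longest transcript.

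FOSL1 (FRA1), the FOS protein most tied to invasion, had close to the same mean in both groups. It was at 194, 190 and 189 CPM in shTRIM21 libraries and 187, 220 and 171 CPM in shControl libraries. The shTRIM21 libraries lay close together inside the wider range of the shControl libraries. Its log2 fold change was -0.01 (SE 0.08), with an interval of -0.17 to 0.15 that leaves out a change of the size seen in JUN. Under the GC and length offset it moved to -0.15 and still did not pass.

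FOSL2 (FRA2) was the remaining member without overlap between groups. It was at 8.16, 8.13 and 10.1 CPM in shTRIM21 libraries and 7.4, 6.01 and 6.66 CPM in shControl libraries. Every shTRIM21 library was higher, though by little. The log2 fold change of 0.40 (SE 0.18) was larger than that of JUN, but its error was wider, and it did not pass. It had 147 to 262 counts per library. Replicate 3 of shTRIM21 was the highest library, and without it the groups were still apart.

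FOS and FOSB, the strongly serum-inducible FOS genes, were low. FOS was at 7.53, 7.37 and 9.74 CPM in shTRIM21 libraries and 7.77, 7.72 and 5.8 CPM in shControl libraries. The fitted log2 fold change of 0.21 (SE 0.19) did not pass, and it was -0.05 without replicate 3 of both groups, since replicate 3 was the highest shTRIM21 and the lowest shControl library. FOSB was at 19.3, 20.2 and 18.2 CPM in shTRIM21 libraries and 21.6, 20.1 and 17.4 CPM in shControl libraries. All FOSB values overlapped, with a log2 fold change of -0.03 (SE 0.12, interval -0.29 to 0.22).

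ATF3, a stress-inducible repressor or activator that pairs with JUN proteins, had the lowest CPM of the members. It was counted 59, 89 and 73 times in shTRIM21 libraries and 62, 55 and 88 times in shControl libraries. The groups overlapped, and the log2 fold change of 0.20 (SE 0.31) had an interval from -0.44 to 0.84, so a change of the size seen in JUN lies within it. The coefficient of variation of ATF3 was 28.4% in shTRIM21 and 17.1% in shControl libraries, where counting error alone gives 11.7% in shTRIM21 and 12.1% in shControl. EGR1 was well measured, at 142, 142 and 138 CPM in shTRIM21 libraries and 142, 125 and 124 CPM in shControl libraries. Replicate 1 of shControl was as high as the shTRIM21 libraries, and the log2 fold change of 0.11 (SE 0.07, interval -0.04 to 0.25) did not pass. The genes most like EGR1 in pattern were VPS39, of endosome and lysosome tethering (difference 0.027), and the zinc-finger proteins ZBTB48 (0.027) and ZC3H4 (0.028). They did not pass either (edgeR adjusted p of 0.414 to 0.745). Their likeness, the closest among 10812 genes, thus lay in small differences between libraries, and shared control with EGR1 was not tested.

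**Figure D2:**
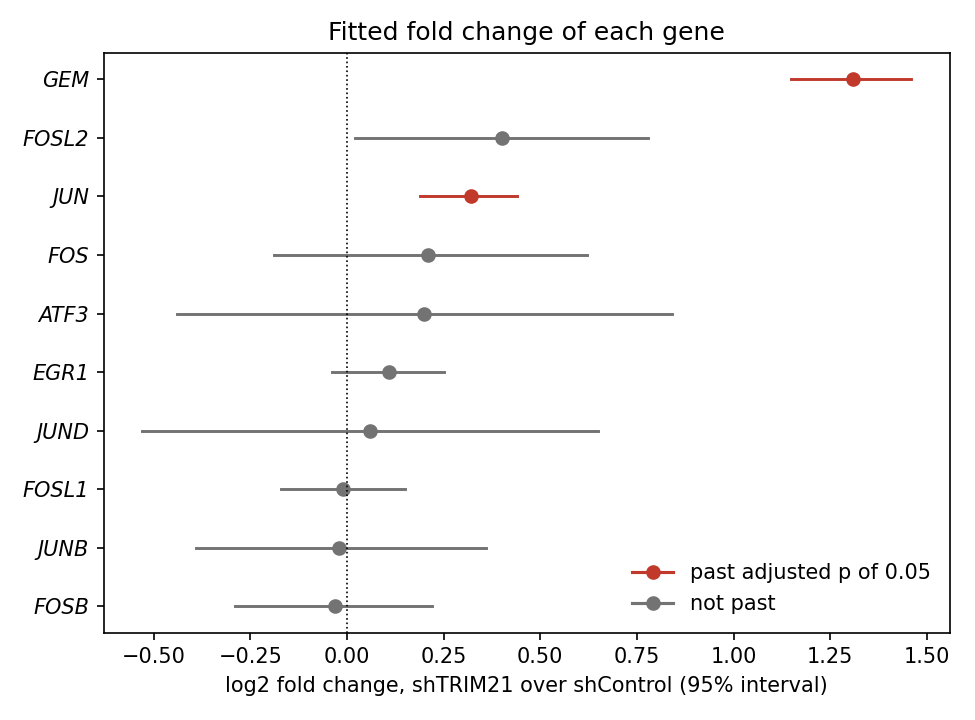
Fitted log2 fold change of each gene, shTRIM21 over shControl, with its 95% interval from the edgeR fit, not adjusted for the number of genes. GEM at 1.31 and JUN at 0.32 are past an adjusted p of 0.05 (red); FOSL2 at 0.40 is not, and the intervals of the other 7 include 0.

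Corrected for length (CPM per kilobase of the longest annotated transcript), the members fell into a high and a low set. FOSL1 and JUN were the most abundant. FOSL1 was at 115 ± 1.73 CPM per kilobase in shTRIM21 cells and 115 ± 14.8 in shControl cells, and JUN at 112 ± 2.75 in shTRIM21 cells and 90.3 ± 3.15 in shControl cells (SD, n = 3 each). The order of FOSL1 and JUN in shTRIM21 cells turned on the length used: per kilobase of all annotated exons FOSL1 was at 101 and JUN at 112 CPM in shTRIM21 cells. GEM was at 70.1 ± 1.84 CPM per kilobase in shTRIM21 cells and 28.4 ± 2.60 in shControl cells, and EGR1 at 44.7 ± 0.68 in shTRIM21 cells and 41.6 ± 3.32 in shControl cells (SD, n = 3 each). GEM therefore stood above EGR1 in shTRIM21 cells and below it in shControl cells, each time by more than the spread.

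The low set ran from JUNB at 8.89 ± 2.19 CPM per kilobase in shTRIM21 cells and 9.01 ± 1.94 in shControl cells (SD, n = 3 each) to FOSL2 at 1.31 ± 0.17 in shTRIM21 cells and 0.997 ± 0.104 in shControl cells. FOSB, FOS, JUND and ATF3 lay between them in that order, and in both groups the mean ± SD of JUND overlapped that of FOS, and that of ATF3 overlapped that of FOSL2. Over both groups JUN and FOSL1 lay at percentiles 96.5 and 97.1 of 13431 tested genes with a length, and FOSL2 and ATF3 at 16.1 and 18.1. With the summed length of all annotated exons in place of the longest transcript, EGR1 ranked above GEM over all 6 libraries, JUND above FOS and FOSL2 above ATF3.

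**Figure D3:**
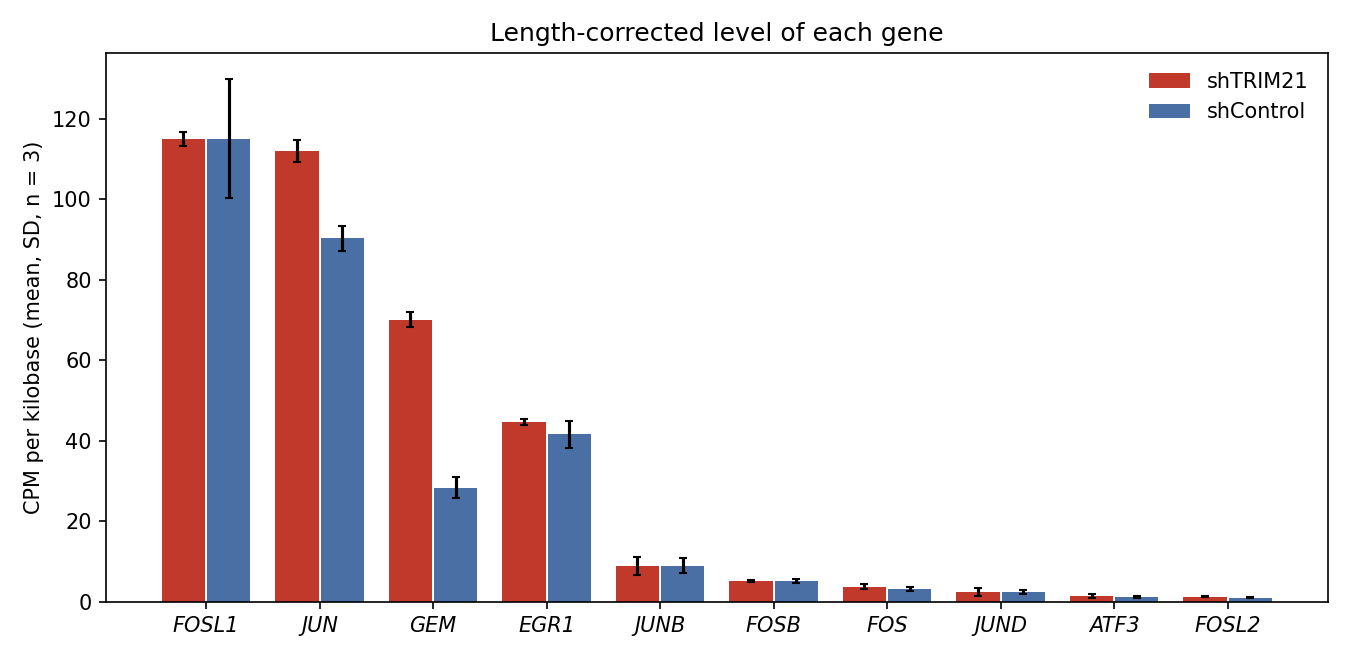
Mean CPM per kilobase of the longest transcript for each gene in shTRIM21 (red) and shControl (blue) cells, with the SD of 3 libraries as error bars. FOSL1 and JUN lead in both groups, and GEM is above EGR1 in shTRIM21 cells only.

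JUN and FOSL1 made up most of the signal counted for their families in both groups. These shares rest on the counts as deposited, whose counter, annotation and strand setting are not known. JUND had only 70 to 158 counts per library, and whether JUND or JUNB was undercounted was not tested. JUN made up 90.8% ± 1.62 of the length-corrected JUN-family signal in shTRIM21 cells and 88.8% ± 1.89 in shControl cells, and JUNB 7.14% ± 1.5 in shTRIM21 cells and 8.82% ± 1.59 in shControl cells (SD, n = 3 each). FOSL1 made up 91.8% ± 0.499 of the FOS-family signal in shTRIM21 cells and 92.4% ± 0.797 in shControl cells (SD, n = 3 each). These 3 shares overlapped between groups. FOSL2 was a small share without overlap, at 0.963%, 0.977% and 1.22% of the FOS-family signal in shTRIM21 libraries and 0.9%, 0.633% and 0.896% in shControl libraries. The summed JUN family was at 129, 119 and 123 CPM per kilobase in shTRIM21 libraries and 103, 106 and 96 in shControl libraries, without overlap. The summed FOS family was at 126, 124 and 124 CPM per kilobase in shTRIM21 libraries and 123, 141 and 111 in shControl libraries, where the groups overlapped.

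The promoters of these genes are known for sites that AP-1, CREB and SRF bind. Only sites close to the start were searched here, so a member without a match may hold one further upstream. RefSeq promoters (GRCh38.p14, 250 bases before to 50 after the start) were read for 8 of the 10 members, with 2 starts for ATF3; FOSL1 and GEM were not read. Searched on both strands were the octamer TGACATCA, the core TGACGT of the cAMP response element (CRE), the AP-1 site TGANTCA and the CArG box that SRF binds. Of the members past the threshold JUN is shown and GEM is not, so passing and other members cannot be compared. The motif is in capitals and on the strand of the gene.
JUN octamer: ggccttggggTGACATCAtgggctattt
ATF3 octamer: acctatgataTGACATCAtatggccact
FOS CRE core: gttgagcccgTGACGTttacactcat
FOSB CRE core: aaggggcgggTGACGTaagcaggggg
FOSL2 CRE core: agtctggggtTGACGTgagtgaatcc
EGR1 distal CArG box: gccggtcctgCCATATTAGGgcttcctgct
EGR1 proximal CArG box: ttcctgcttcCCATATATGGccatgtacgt

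JUN, at 1.25-fold, and ATF3, which did not pass, both hold the octamer TGACATCA. It begins at position -67 from the start of JUN (window chr1:58784097-58784124, minus strand) and at -123 from the upstream start of ATF3 (chr1:212565274-212565301, plus strand). It occurs in 2.61% of the 35116 RefSeq promoters. The CRE core lies at -64 in FOS (chr14:75278754-75278779), at -60 in FOSB (chr19:45467926-45467951) and at -66 in FOSL2 (chr2:28392782-28392807), all on the plus strand. It is also in the promoters of EGR1 and JUND, where a site of JUND on both strands overlaps itself, and in 7.98% of all promoters. None of these 5 genes passed the test. Among the members read, EGR1 alone held the CArG box from 250 bases before to 50 after the start. The box lay at -105 and -83 (chr5:138465364-138465393 and chr5:138465386-138465415, plus strand) and is in 1.29% of all promoters. Sites further upstream were not read in FOS or any other gene. FOSL2 alone held the AP-1 site, just after its start, which is in 7.71% of all promoters, and JUNB held none of the 4 motifs in this window. A match is a string of letters and not evidence of binding.

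Around the members, 8 lists of pathway genes held 142 genes, of which 126 were tested, 15 rose, 13 fell and 98 did not pass, or 22.2% past the threshold against 9.08% of all tested genes. Several of these genes were known from earlier results of these data when the lists were drawn up, so the share is not independent evidence. Over the 126 the log2 fold changes had a median of 0.07, against 0.01 over all genes tested. Of the 28 genes past the threshold 13 kept their call under all 15 alternatives, and 0 reversed.

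**Figure D4:**
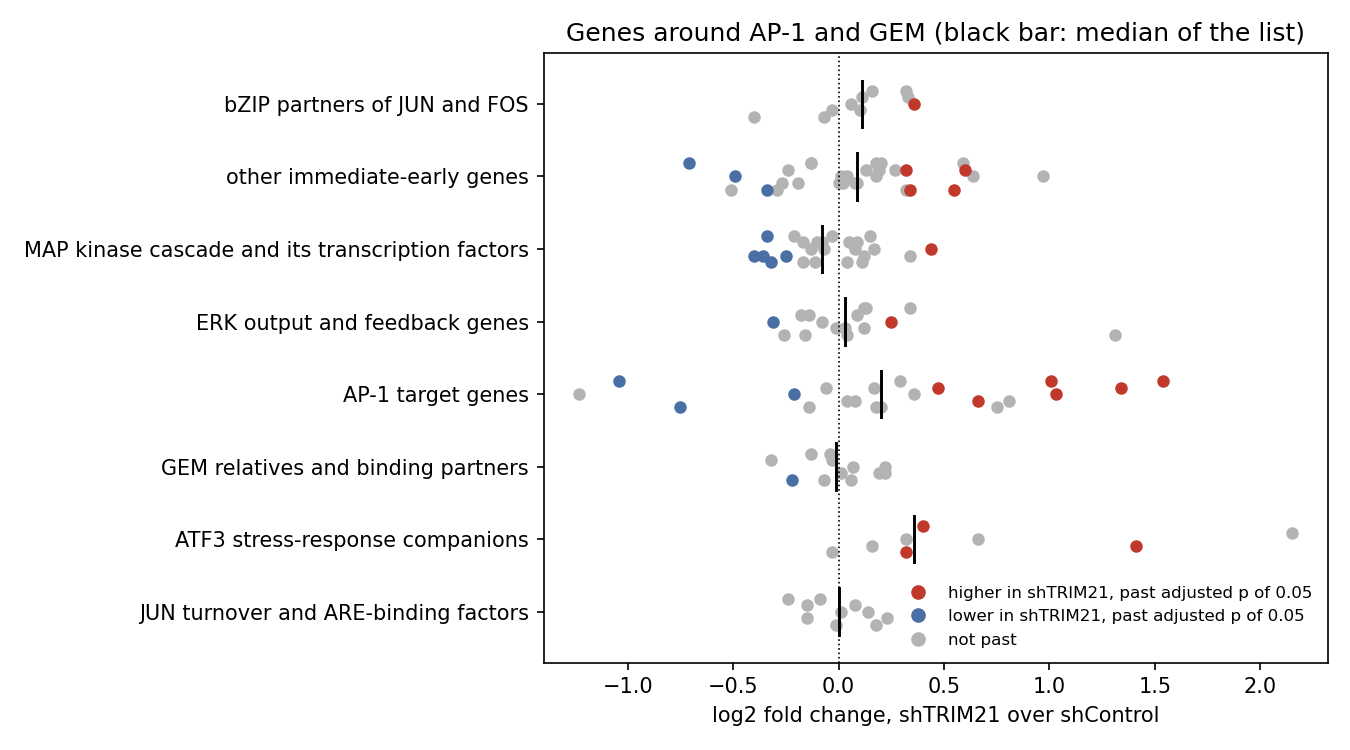
Log2 fold change, shTRIM21 over shControl, of the tested genes of 8 lists around AP-1 and GEM, with genes past an adjusted p of 0.05 in red (higher) or blue (lower) and the median of each list as a black bar. The AP-1 targets lie on both sides of 0, with HMOX1 at 1.34 among those higher and PLAU at -1.04 among those lower.

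Among bZIP partners of JUN and FOS 10 of 11 were tested, 1 rose, 0 fell and 9 did not pass. That is 10% past the threshold, close to the 9.08% of all tested genes (4.66% lower). Nothing is read from these counts, and the median of the list was 0.11. Lower ones also numbered 0 at an unadjusted p under 0.05 in edgeR, in DESeq2 and in limma-voom. MAFG, a small MAF protein that lacks an activation domain, rose to 54.2 ± 4.54 CPM in shTRIM21 cells, against 42.1 ± 3.10 CPM in shControl cells (SD, n = 3 each; log2 fold change 0.36, SE 0.09, edgeR adjusted p = 0.017). Leaving out shTRIM21 replicate 1 or 2 ended that call (edgeR adjusted p of 0.0542 and 0.107). ATF2 and ATF7, which pair with JUN on CRE sites, had log2 fold changes of -0.07 (SE 0.08) and 0.06 (SE 0.09).

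The other immediate-early genes were divided. Of 31 genes 30 were tested, 4 rose, 3 fell and 23 did not pass. That is 23.3% past the threshold, against 9.08% of all tested genes, in a list drawn up with earlier results known. Their median was 0.09. BTG2, an antiproliferative gene, was at 42.1, 39.3 and 38.1 CPM in shTRIM21 libraries and 26, 28.1 and 27.3 CPM in shControl libraries, higher in every shTRIM21 library (log2 fold change 0.55, SE 0.09, edgeR adjusted p = 0.000986). PPP1R15A (GADD34), which returns translation after stress, rose by 0.32 (SE 0.06, adjusted p = 0.0033 in edgeR), the same log2 change as JUN. CSRNP1, a nuclear factor induced by AXIN1, rose by 0.60 (SE 0.17), and the small GTPase RHOB by 0.34 (SE 0.09). CSRNP1 lost its call without shTRIM21 replicate 2 or 3 or shControl replicate 1 (edgeR adjusted p of 0.0924 to 0.117) and without replicate 3 of both groups (adjusted p = 0.104). RHOB lost its call without any one library but shControl replicate 3 (edgeR adjusted p of 0.0519 to 0.105) and under the GC and length offset (adjusted p = 0.057).

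Lower among these immediate-early genes were IER5, KLF10 and MCL1. IER5 was at 11.3, 11.1 and 13.5 CPM in shTRIM21 libraries and 20.4, 17.9 and 20.3 CPM in shControl libraries (log2 fold change -0.71, SE 0.14, edgeR adjusted p = 0.00293). KLF10, a TGF-beta-inducible zinc-finger repressor, was at 97.7, 109 and 103 CPM in shTRIM21 libraries and 147, 139 and 147 CPM in shControl libraries (-0.49, SE 0.07, edgeR adjusted p = 0.000115). MCL1, an antiapoptotic BCL2 relative with a short-lived product, was lower in each shTRIM21 library (-0.34, SE 0.07, edgeR adjusted p = 0.00436). The classic companions of FOS and EGR1 did not pass: IER2 had a log2 fold change of 0.18 (SE 0.08), DUSP1 of 0.13 (SE 0.19), EGR3 of -0.27 (SE 0.13) and CCN1 of 0.02 (SE 0.06).

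Upstream, the MAP kinase cascade and its transcription factors had 24 of 25 genes tested, of which 1 rose, 5 fell and 18 did not pass. That is 25% past the threshold, against 9.08% of all tested genes, in a list drawn up with earlier results known. Their median was -0.08. RPS6KA3 (RSK2), an ERK-activated kinase that acts on immediate-early factors, fell by 0.36 (SE 0.07, edgeR adjusted p = 0.0024). The JNK-activating kinase MAP2K4 fell by 0.34 (SE 0.08) and the receptor EGFR by 0.32 (SE 0.08), while MAPK3 (ERK1) rose by 0.44 (SE 0.12). These 3 calls were each lost without at least 3 single libraries. EGFR lost its call without replicate 1 or 2 of either group (edgeR adjusted p of 0.0514 to 0.0644). MAP2K4 lost it without shTRIM21 replicate 2 or 3 or shControl replicate 2 and without replicate 3 of both groups (edgeR adjusted p of 0.0514 to 0.102). MAPK3 lost it without any shTRIM21 library, shControl replicate 1 or replicate 3 of both groups (edgeR adjusted p of 0.0572 to 0.0977). SRF, which drives EGR1 and FOS, had a log2 fold change of 0.04 (SE 0.09).

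Downstream of ERK, 16 of 17 output and feedback genes were tested, 1 rose, 1 fell and 14 did not pass. That is 12.5% past the threshold, near the 9.08% of all tested genes, so nothing is read from the count. The median of the list was 0.03. DUSP6, the ERK phosphatase, rose to 108 ± 5.31 CPM in shTRIM21 cells, against 90.6 ± 4.92 CPM in shControl cells (SD, n = 3 each; log2 fold change 0.25, SE 0.07, edgeR adjusted p = 0.0355). SPRED1, an inhibitor of MAP kinase signalling, fell by 0.31 (SE 0.08, edgeR adjusted p = 0.0196). DUSP6 lost its call without any one library but shControl replicate 3 (edgeR adjusted p of 0.0575 to 0.181), and SPRED1 without replicate 1 or 2 of shTRIM21 or replicate 1 of shControl (edgeR adjusted p of 0.0516 to 0.0978). SPRY4, a feedback inhibitor, and the ETS factor ETV5 had log2 fold changes of 0.03 (SE 0.06) and -0.01 (SE 0.07). DUSP4 had the largest log2 fold change of the list (1.31, SE 0.44) and did not pass (edgeR adjusted p = 0.0729). Its level was low, at 1.8 ± 0.236 CPM in shTRIM21 cells and 0.723 ± 0.103 CPM in shControl cells (SD, n = 3 each), without overlap.

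AP-1 target genes moved in both directions. Of 27 genes 21 were tested, 6 rose, 3 fell and 12 did not pass. That is 42.9% past the threshold, against 9.08% of all tested genes, in a list drawn up with earlier results known. Their median was 0.20. PLAU, the urokinase protease and a textbook AP-1 target, was at 25.7, 21.7 and 27.3 CPM in shTRIM21 libraries and 51.6, 51.2 and 50.8 CPM in shControl libraries, lower in every shTRIM21 library (log2 fold change -1.04, SE 0.10, edgeR adjusted p = 1.58e-06). CCND1, cyclin D1, was at 124, 130 and 136 CPM in shTRIM21 libraries and 219, 217 and 221 CPM in shControl libraries (-0.75, SE 0.06, edgeR adjusted p = 4.31e-07). The urokinase receptor PLAUR, by contrast, did not pass (0.18, SE 0.08).

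Higher AP-1 targets included HMOX1, at 81.7, 76.7 and 93.7 CPM in shTRIM21 libraries and 37, 36.6 and 26.2 CPM in shControl libraries (log2 fold change 1.34, SE 0.11, edgeR adjusted p = 4.42e-07). VIM rose by 1.03 (SE 0.17) and the protease inhibitor TIMP1 by 0.66 (SE 0.09). CXCL8, the neutrophil chemokine, was at 14, 10.5 and 7.92 CPM in shTRIM21 libraries and 3.93, 5.39 and 6.73 CPM in shControl libraries (1.01, SE 0.23, edgeR adjusted p = 0.00893), and lost its call without shTRIM21 replicate 1 (0.78, adjusted p = 0.071). HBEGF, an EGFR ligand that rose by 0.47 (SE 0.14), and CD44, a hyaluronan receptor that fell by 0.21 (SE 0.06), had edgeR adjusted p of 0.0456 and 0.0313. CD44 lost its call without any library but shControl replicate 3 (edgeR adjusted p of 0.0554 to 0.139). HBEGF lost it without shTRIM21 replicate 2 or 3 or shControl replicate 1 or 2 and with limma-voom (adjusted p of 0.0628 to 0.189). The collagenase MMP1, at 4.17 ± 0.868 CPM in shTRIM21 cells and 4.59 ± 0.717 CPM in shControl cells (SD, n = 3 each), did not pass. MMP10 had the lowest log2 fold change of the list (-1.23, SE 0.39) and did not pass (edgeR adjusted p = 0.0534). It was at 1.17 ± 0.556 CPM in shTRIM21 cells and 2.73 ± 0.102 CPM in shControl cells (SD, n = 3 each), without overlap. MMP3 (0.81, SE 0.55) and MMP14 (0.17, SE 0.08) went the other way and did not pass.

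Stress-response companions of ATF3 had 8 of 10 genes tested, 3 higher, 0 lower and 5 that did not pass. Their median was 0.36. That is 37.5% past the threshold, against 9.08% of all tested genes (4.43% higher and 4.66% lower). The lists were drawn up with earlier results known, so neither the share nor the direction is independent evidence. Lower ones also numbered 0 at an unadjusted p under 0.05 in edgeR, in DESeq2 and in limma-voom, and CHAC1, which acts on glutathione, had the largest log2 fold change of the list (2.15, SE 0.69) at 1.08 ± 0.664 CPM in shTRIM21 cells and 0.242 ± 0.148 CPM in shControl cells (SD, n = 3 each) without passing. Asparagine synthetase (ASNS) was at 56.7, 59.8 and 61.3 CPM in shTRIM21 libraries and 45.7, 43.8 and 45.3 CPM in shControl libraries (log2 fold change 0.40, SE 0.08, edgeR adjusted p = 0.00394). The others were PPP1R15A, given above, and DDIT4, an mTORC1 inhibitor, which rose by 1.41 (SE 0.32) and lost its call without shTRIM21 replicate 2 (1.24, edgeR adjusted p = 0.0677). ATF4, which induces ATF3 under stress, had a log2 fold change of -0.03 (SE 0.06), and DDIT3 (CHOP) of 0.16 (SE 0.12).

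Of factors that control JUN protein turnover or bind AU-rich mRNAs 10 of 11 were tested and 0 passed in edgeR, with a median of 0.00. As only 9.08% of all tested genes passed, nothing is read from a count of 0 among 10 genes. At an unadjusted p under 0.05, 2 were higher and 1 lower, and DESeq2 and limma-voom each called 1 higher and 0 lower. The JUN ubiquitin ligases FBXW7 and COP1 had log2 fold changes of -0.01 (SE 0.10) and 0.23 (SE 0.09). ZFP36L1, which promotes decay of AU-rich mRNAs, was at 426, 424 and 429 CPM in shTRIM21 libraries and 371, 377 and 382 CPM in shControl libraries. Its groups did not overlap, as was so for the 14.1% of all tested genes that were higher without overlap. It did not pass (0.18, SE 0.06, edgeR adjusted p = 0.0579).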

How the data were processed

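RNA depleted of ribosomal RNA was sequenced from 6 HCT116 libraries, 3 shTRIM21 and 3 shControl, which the labels call biological replicates without saying that cultures were separate, so p-values measure only the spread between these samples. The deposited values are whole-number counts for each gene symbol, not normalized. The submitters' processing notes name hg38, TopHat2 2.1.1, limma 3.52.2 and edgeR 3.38.1; of the counter, annotation and strand setting the sources used here say nothing. Counts were tested here in R 4.3.3 by edgeR 4.0.16 after filterByExpr and TMM scaling, with group as the only term; the quasi-likelihood test was adjusted by Benjamini-Hochberg over 14002 genes. SE is the log2 fold change divided by the square root of F, and 95% intervals use the moderated degrees of freedom. Lengths and positions come from GENCODE 29 (GRCh38), which matched 26173 of 28278 symbols. Log2 CPM used a prior count of 2. Alternatives included DESeq2 1.42.0 and limma-voom (limma 3.58.1); the tests were tested on simulated data. The members, lists and tests were chosen with earlier results of these data known. Named were all members, TRIM21, up to 4 genes in each direction past the threshold per list, and the 3 genes most like GEM, JUN and EGR1; other list genes were picked after their values were seen. Values of some list genes are not reported here, though the list counts, medians and points include them.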

Additional observations from a re-analysis of the deposited data

How the results depend on the processing

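The members past the threshold numbered 2, GEM and JUN, under all 15 alternatives, with log2 fold changes of 1.26 to 1.39 for GEM and 0.25 to 0.34 for JUN. FOSL2 and EGR1 stayed above 0 in all 15 (0.28 to 0.48 and 0.04 to 0.17) without passing in any, while JUNB, JUND, FOS, FOSB, FOSL1 and ATF3 changed sign in at least 1 and passed in 0. Genes past the threshold over the whole table numbered 602 to 1737 with 1 library left out and 1914 under the GC and length offset, against 1272; the cause of the count under the offset was not tested. Pathway genes past the threshold numbered 15 to 30 with 1 library left out, against 28. The fit without replicate 3 of both groups was chosen after the data were seen. The deviations of same-numbered libraries correlated at 0.096, -0.012 and 0.091 for numbers 1 to 3. The samples were therefore not taken as paired by number. Number 2 was not closest to its own number, as 1 and 3 were. The share of ribosomal RNA, however, fell from replicate 1 to 3 in both groups. It was 15.2%, 13.5% and 9.55% in shTRIM21 libraries and 14.7%, 13.2% and 6.69% in shControl libraries. Whether the numbers mark a shared batch was not tested. With the replicate block 1699 genes, 34 pathway genes and the same 2 members were past the threshold. The coefficient of variation of JUNB was 24.7% in shTRIM21 and 21.5% in shControl libraries, where counting error alone gives 4.99% in shTRIM21 and 4.9% in shControl. The spread of JUND, FOS and ATF3 was also wider than counting error in both groups, least so for ATF3 in shControl (17.1% against 12.1%). Depth alone therefore does not set what could be detected in JUNB, JUND, FOS and ATF3.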
